A study of Homo sapiens with 9 samples.

Results

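The genes described here are 40 genes of the NRF2 response, of glutathione and thioredoxin chemistry and of peroxide removal, taken by symbol from a list out of 58051 genes in the deposited count table. They were measured by RNA-seq in A431 cells, a human epidermoid carcinoma line that carries mutant p53 R273H, in 3 groups of 3 libraries each. Parental cells were unmodified. Ctrl cells carried an empty-vector CRISPR construct and kept mutant p53, and p53 KO cells were made with a CRISPR construct directed against p53. All cells were grown in DMEM with 10% FBS, and the labels describe growth as single colonies before plating and harvest 48 h after the cells had settled. An edited line grown from a colony can differ from parental cells in more than p53, and the effect of p53 cannot be told apart from that of the colony. Nothing in the sources used here says that the 3 libraries of a group came from separate cultures or colonies, so the p-values measure the spread between these libraries only. Fewer cells of a kind and less RNA per cell cannot be told apart in such bulk samples.

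NRF2, encoded by NFE2L2, is a transcription factor that KEAP1 holds in check by directing it to degradation. Electrophiles and oxidants release it, and it then binds antioxidant response elements (AREs) near genes that import cystine, make glutathione, reduce thioredoxin, detoxify quinones and carbonyls, store iron and supply NADPH. Squamous carcinomas often have this pathway switched on, and mutant p53 has been linked to NRF2 and to cystine import through SLC7A11.

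Libraries held 19783778 to 29840452 counts. Of 9 markers of squamous epithelium, KRT14 had at most 3 counts in parental and Ctrl libraries. The sum of all 9 was 10494.6 to 19335.1 CPM (counts scaled to the TMM-normalised library size). EGFR made up most of that sum, at 8665.47 to 17319.8 CPM. KRT5, CDH1, DSP and EPCAM were at 265 to 697 CPM and KRT6A, KRT17 and TP63 at 9.23 to 87.8 CPM. Fibroblast markers summed to 2.33 to 4.36 CPM and endothelial markers to 0.383 to 1.16 CPM. PTPRC and CD3E, which mark immune cells, had no count in any library. The 5 immune markers summed to 0.830 to 1.12 CPM in parental, 1.22 to 1.83 in Ctrl and 1.75 to 2.68 in p53 KO libraries, nearly all of it from CD68 and from LYZ, which was at 0.038 to 0.192 CPM in parental and 0.647 to 1.34 CPM in p53 KO libraries; its part in the results was not tested. Ctrl replicate 1 and p53 KO replicate 3 stood apart from their groups in the same way. Their deviations from the group mean rose and fell together over 10895 genes (r = 0.75, a description over genes), and those deviations ran against transcript length (Spearman's rho -0.63 and -0.56 over 10931 genes). Of the 38 redox genes tested, 26 were highest of their group in Ctrl replicate 1 and 25 in p53 KO replicate 3. The shares of all genes highest or lowest in a library are not given here, so such counts have no background to be read against. Ctrl replicate 3 lay on the other side of its group mean, with a rho of 0.59 and 26 of the 38 genes lowest of their group. Taken from the mean of the other libraries of its group, its deviations had an SD of 0.247. On that measure the SD was 0.191 for p53 KO replicate 3 and 0.361 for Ctrl replicate 1. The redox genes have short transcripts, with a median longest transcript of 2277 bp in 37 of them against 3458 bp for 14397 genes tested. The part of these libraries in each result was not tested, and counts are given below with and without them.

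The sequences that bear on this pathway are the promoters in which an ARE core can be read. The core TGACNNNGC was searched on both strands in the RefSeq promoters (GRCh38.p14, 250 bases before to 50 bases after the annotated start, 300 bases in all). It was present in 7 of the 31 redox genes with a promoter in the reference (22.6%) and in 13.6% of 27305 promoters. The redox genes were listed partly as NRF2 targets, so these shares do not test for an excess. Letters outside this window were not searched, nor were the listed genes without a promoter in the reference. A binding site of AP-1, TGACTCA, can lie within the core, as in TGACTCAGC. The 7 genes were SLC3A2, GCLM, GPX2, GSTP1, TXNRD1, PGD and ME1. The 4 promoters that follow are those of genes with a core that were called in 2 of the 3 comparisons; they are printed 5′ to 3′ on the strand of the gene, with the core in capitals (GC then NNN then GTCA where it lies on the opposite strand).
SLC3A2, chr11:62881449-62881748, plus strand, core 37 bases before the start: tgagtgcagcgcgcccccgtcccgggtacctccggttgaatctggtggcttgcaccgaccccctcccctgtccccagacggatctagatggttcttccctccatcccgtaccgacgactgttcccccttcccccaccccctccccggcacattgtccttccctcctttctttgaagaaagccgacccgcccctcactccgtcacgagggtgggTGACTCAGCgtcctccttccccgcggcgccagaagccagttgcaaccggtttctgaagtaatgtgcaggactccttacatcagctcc
GCLM, chr1:93909381-93909680, minus strand, core 34 bases before the start on the opposite strand: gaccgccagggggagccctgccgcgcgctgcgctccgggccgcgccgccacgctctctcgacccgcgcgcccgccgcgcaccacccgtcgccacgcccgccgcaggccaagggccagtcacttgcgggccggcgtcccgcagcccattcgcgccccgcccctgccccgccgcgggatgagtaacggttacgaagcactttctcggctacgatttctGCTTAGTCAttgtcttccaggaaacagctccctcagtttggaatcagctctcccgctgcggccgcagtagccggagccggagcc
GPX2, chr14:64942696-64942995, minus strand, core 122 bases before the start on the opposite strand: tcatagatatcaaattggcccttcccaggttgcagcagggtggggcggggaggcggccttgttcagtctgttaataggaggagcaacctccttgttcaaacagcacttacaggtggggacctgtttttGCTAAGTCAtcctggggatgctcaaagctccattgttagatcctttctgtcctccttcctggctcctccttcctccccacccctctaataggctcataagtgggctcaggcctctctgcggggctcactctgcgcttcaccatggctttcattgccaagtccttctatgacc
TXNRD1, chr12:104215529-104215828, plus strand, cores 99 and, on the opposite strand, 8 bases before the start: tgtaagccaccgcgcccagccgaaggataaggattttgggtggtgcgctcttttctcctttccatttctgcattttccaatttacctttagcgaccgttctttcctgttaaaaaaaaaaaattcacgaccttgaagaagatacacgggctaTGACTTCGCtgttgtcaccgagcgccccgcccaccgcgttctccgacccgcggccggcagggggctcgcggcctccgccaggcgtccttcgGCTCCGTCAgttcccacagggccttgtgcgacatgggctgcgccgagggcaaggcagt
A match is a description of letters and not of a bound site. The 4 genes with these promoters did not move alike. SLC3A2 and TXNRD1 were lower in p53 KO than in Ctrl cells, GPX2 was higher, and GCLM was lower than parental in both edited lines.

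Across the whole set, the redox genes did not shift in 1 direction with loss of p53. Of 40 genes, 38 passed the filter on low counts. GPX3, the plasma glutathione peroxidase, had no count in any library, and MGST1, a microsomal glutathione transferase, had 4 to 10 counts. A gene was called at an adjusted p of at most 0.05 (edgeR quasi-likelihood test, Benjamini-Hochberg over 14513 genes tested). Against parental cells, 5 redox genes were higher in p53 KO cells (13.2% of those tested, where 9.77% of all genes tested were called higher) and 3 were lower (7.89%, against 8.36% of all genes). Against Ctrl cells, 4 were higher (10.5%, against 15%) and 9 were lower (23.7%, against 14.2%). Ctrl cells themselves differed from parental cells in 11 genes that were higher (28.9%, against 10.6%) and 2 that were lower (5.26%, against 9.69%). The median log2 fold change (log2FC, given with its SE where an error is printed) of the 38 genes was 0.09 for p53 KO against parental, -0.12 for p53 KO against Ctrl and 0.23 for Ctrl against parental, where the medians of all genes were 0.006, 0.006 and 0.003. Each comparison with Ctrl cells gave 13 calls and p53 KO against parental gave 8, and the first 2 share the Ctrl libraries. In 19 of the 38 genes no comparison was called. The share of all genes called in none is not given here, so this count has no background to be read against.

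In 5 genes p53 KO cells differed from parental and from Ctrl cells in 1 direction. GSR, PRDX3 and SOD2 were higher in p53 KO cells (3 genes, 7.89%, where 6.46% of all genes were called higher against both) and GCLC and TXNRD1 were lower (2 genes, 5.26%, against 5.25%). These shares are near the background. Past the study's fold threshold of 1.5 on the log2 scale were AKR1C2 in p53 KO against parental cells (1 gene, where 1.95% of all genes passed), AKR1B10 in p53 KO against Ctrl cells (1 gene, 3.29%), and AKR1C1 and AKR1C2 in Ctrl against parental cells (2 genes, 1.94%).

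**Figure D1:**
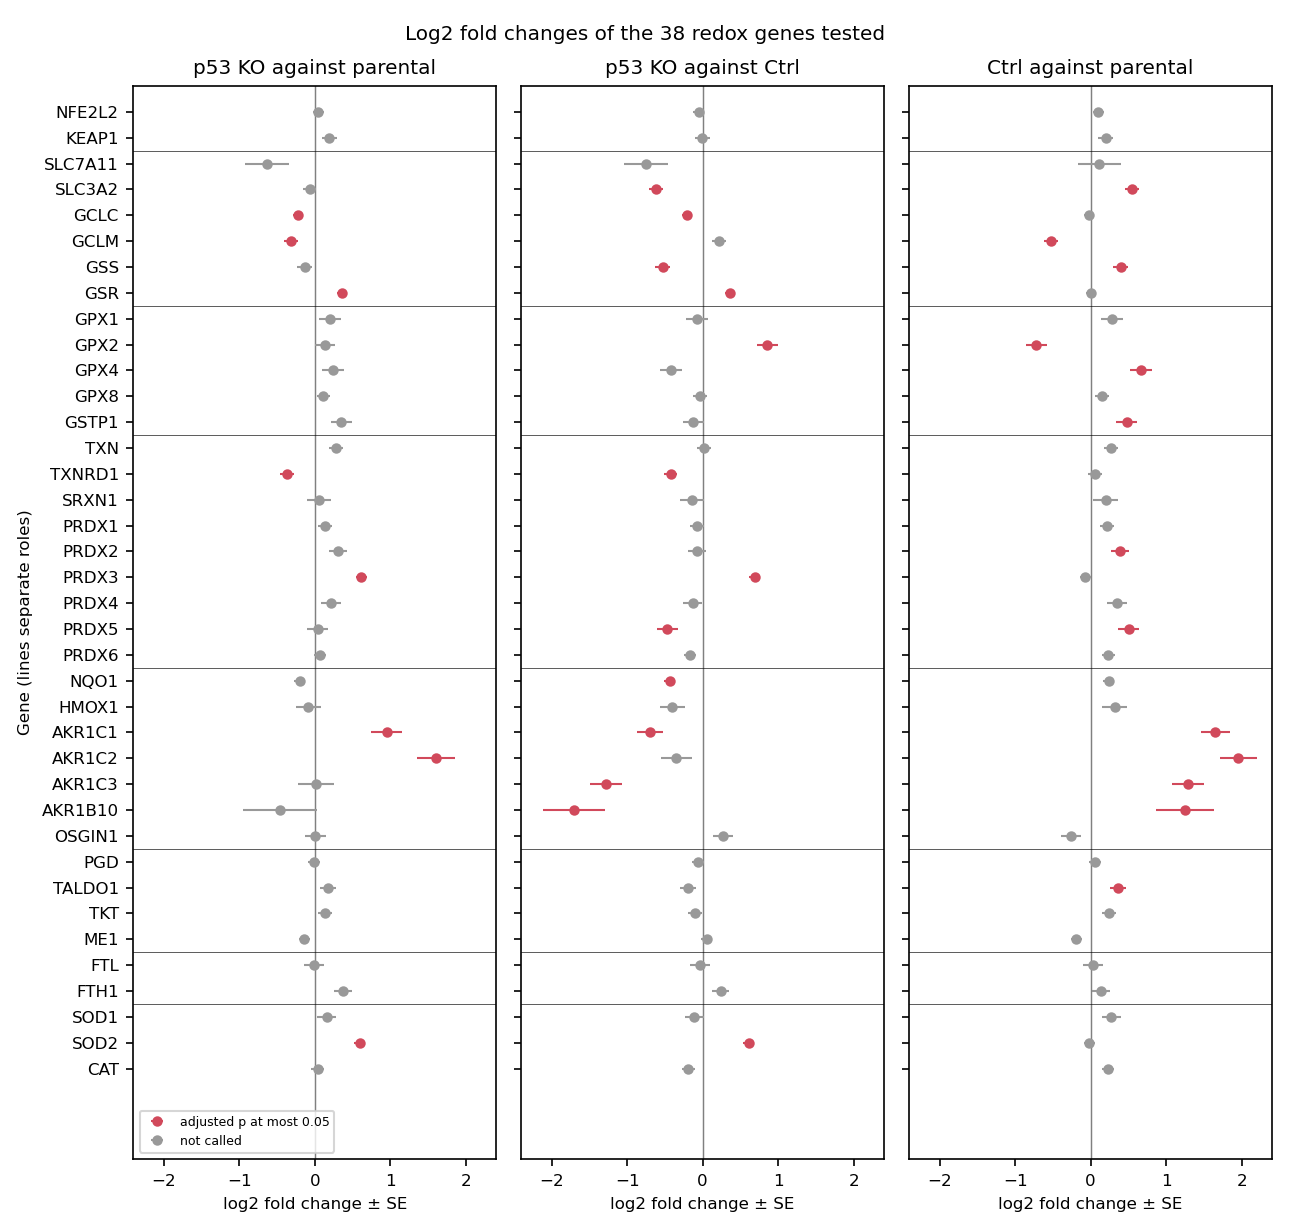
Log2 fold changes ± SE (x axis) of the 38 redox genes tested (y axis, lines separate roles) in the 3 comparisons, in red where the adjusted p was at most 0.05. GSR, PRDX3 and SOD2 lie right of 0 and GCLC and TXNRD1 left of 0 in both p53 KO panels, while the AKR1C genes lie far to the right in Ctrl against parental.

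With all 9 libraries, neither of the pathway's regulators was called at the transcript level in any comparison. NFE2L2 (chr2:177218667-177392756, minus strand) was at 100, 100 and 103 CPM in parental, 106, 104 and 104 CPM in p53 KO and 98.7, 115 and 111 CPM in Ctrl libraries. The p53 KO values lie inside the range of the Ctrl values. Its log2FC was 0.05 ± 0.07 against parental (adjusted p = 0.686, edgeR) and -0.05 ± 0.07 against Ctrl cells (adjusted p = 0.635, edgeR). KEAP1 (chr19:10486125-10503558, minus strand), the adaptor that sends NRF2 to the proteasome, was at 101, 101 and 101 CPM in parental, 110, 109 and 129 CPM in p53 KO and 135, 110 and 103 CPM in Ctrl libraries. Every p53 KO and Ctrl value was above the parental ones, and the highest of each group was the library that stood apart. Neither comparison of p53 KO cells was called (log2FC 0.19, adjusted p = 0.228 and -0.003, adjusted p = 0.988, edgeR). KEAP1 was called higher in p53 KO against parental cells in the fit of these 2 groups (log2FC 0.19, adjusted p = 0.0446, edgeR) and without Ctrl replicate 1 (0.19, adjusted p = 0.0394), and NFE2L2 in Ctrl against parental cells without Ctrl replicate 1 and p53 KO replicate 3 (0.16, adjusted p = 0.023, edgeR). NRF2 is controlled largely at the protein level, which was not measured here.

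Among the genes of cystine import and glutathione synthesis, the enzyme that catalyses the committed step was slightly lower in p53 KO cells. GCLC (chr6:53497341-53616970, minus strand), the catalytic subunit of glutamate-cysteine ligase, was at 49.8, 48.7 and 47.8 CPM in p53 KO, 55.3, 57.5 and 58.4 CPM in parental and 54.6, 55.5 and 58.3 CPM in Ctrl libraries. All p53 KO libraries were below all others, by a small margin. The log2FC was -0.23 ± 0.07 against parental (adjusted p = 0.0388, edgeR) and -0.20 ± 0.07 against Ctrl cells (adjusted p = 0.0419, edgeR). With 1 library left out in turn, these calls were kept in 2 and 1 of 9 fits, so they rest near the threshold: the first was lost without any one of the parental or p53 KO libraries or without Ctrl replicate 2, the second without any library other than Ctrl replicate 1.

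GCLM, the modifier subunit of the same ligase, was lower than parental in both edited lines. It was at 137, 144 and 134 CPM in parental, 113, 112 and 109 CPM in p53 KO and 81.3, 101 and 105 CPM in Ctrl libraries. The 3 groups did not overlap, with Ctrl lowest. The log2FC was -0.53 in Ctrl (adjusted p = 0.00289, edgeR) and -0.32 in p53 KO against parental cells (adjusted p = 0.0364, edgeR), and the latter call was lost without any 1 parental or p53 KO library. Between p53 KO and Ctrl cells GCLM was not called (log2FC 0.21, adjusted p = 0.106, edgeR).

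SLC7A11 (chr4:138164097-138242349, minus strand), the cystine-glutamate exchanger, varied 2.74-fold between Ctrl libraries; its values, like those of AKR1C3 and of other genes outside the fixed rule that follow, are shown because of what was seen in them. It was at 54.5, 43.4 and 51.9 CPM in parental, 35.5, 35.9 and 25.2 CPM in p53 KO and 26.2, 63.9 and 71.8 CPM in Ctrl libraries. The p53 KO values were below all parental values and overlapped Ctrl only through Ctrl replicate 1. With all libraries the log2FC was -0.63 ± 0.29 against parental (adjusted p = 0.167, edgeR) and -0.75 ± 0.29 against Ctrl cells (adjusted p = 0.0795, edgeR), and neither was called. The calls depended on how the spread was estimated as well as on the libraries. With all 9 libraries and no filter on low counts both passed at nearly the same folds (-0.63, adjusted p = 2.24e-05 and -0.74, adjusted p = 1.64e-07, edgeR), and the fit of p53 KO and parental cells alone gave -0.63 (adjusted p = 0.00141). Without Ctrl replicate 1 the log2FC was -0.62 (adjusted p = 0.000983, edgeR) against parental and -1.07 (adjusted p = 1.43e-05, edgeR) against Ctrl cells. With p53 KO replicate 3 left out as well, the values were -0.49 (adjusted p = 0.000954) and -0.93 (adjusted p = 5.29e-06, edgeR). The Ctrl against parental difference, 0.12 with all libraries (adjusted p = 0.782), became 0.44 (adjusted p = 0.00177, edgeR).

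SLC3A2, the heavy chain that brings SLC7A11 and other amino acid exchangers to the membrane, was higher in Ctrl cells than in both other groups. It was at 351, 332 and 361 CPM in parental, 311, 330 and 356 CPM in p53 KO and 575, 489 and 463 CPM in Ctrl libraries. Its log2FC was 0.55 ± 0.09 in Ctrl against parental (adjusted p = 0.00184, edgeR) and -0.62 ± 0.09 in p53 KO against Ctrl cells (adjusted p = 0.000395, edgeR), both called in 9 of 9 fits that left out 1 library, and -0.07 in p53 KO against parental (adjusted p = 0.65). GSS, glutathione synthetase, was likewise highest in Ctrl cells, with 0.40 in Ctrl against parental and -0.53 in p53 KO against Ctrl cells; the first call was lost without any 1 parental library.

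GSR (chr8:30678066-30727846, minus strand), the reductase that returns oxidised glutathione to its reduced form, was higher in p53 KO cells than in both controls. It was at 182, 187 and 185 CPM in p53 KO, 145, 140 and 147 CPM in parental and 135, 150 and 146 CPM in Ctrl libraries, with no overlap between p53 KO and the rest. The log2FC was 0.36 ± 0.07 in both comparisons (1.29-fold; adjusted p = 0.003 against parental and 0.0016 against Ctrl, edgeR), and it was called in 9 of 9 fits without 1 library.

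**Figure D2:**
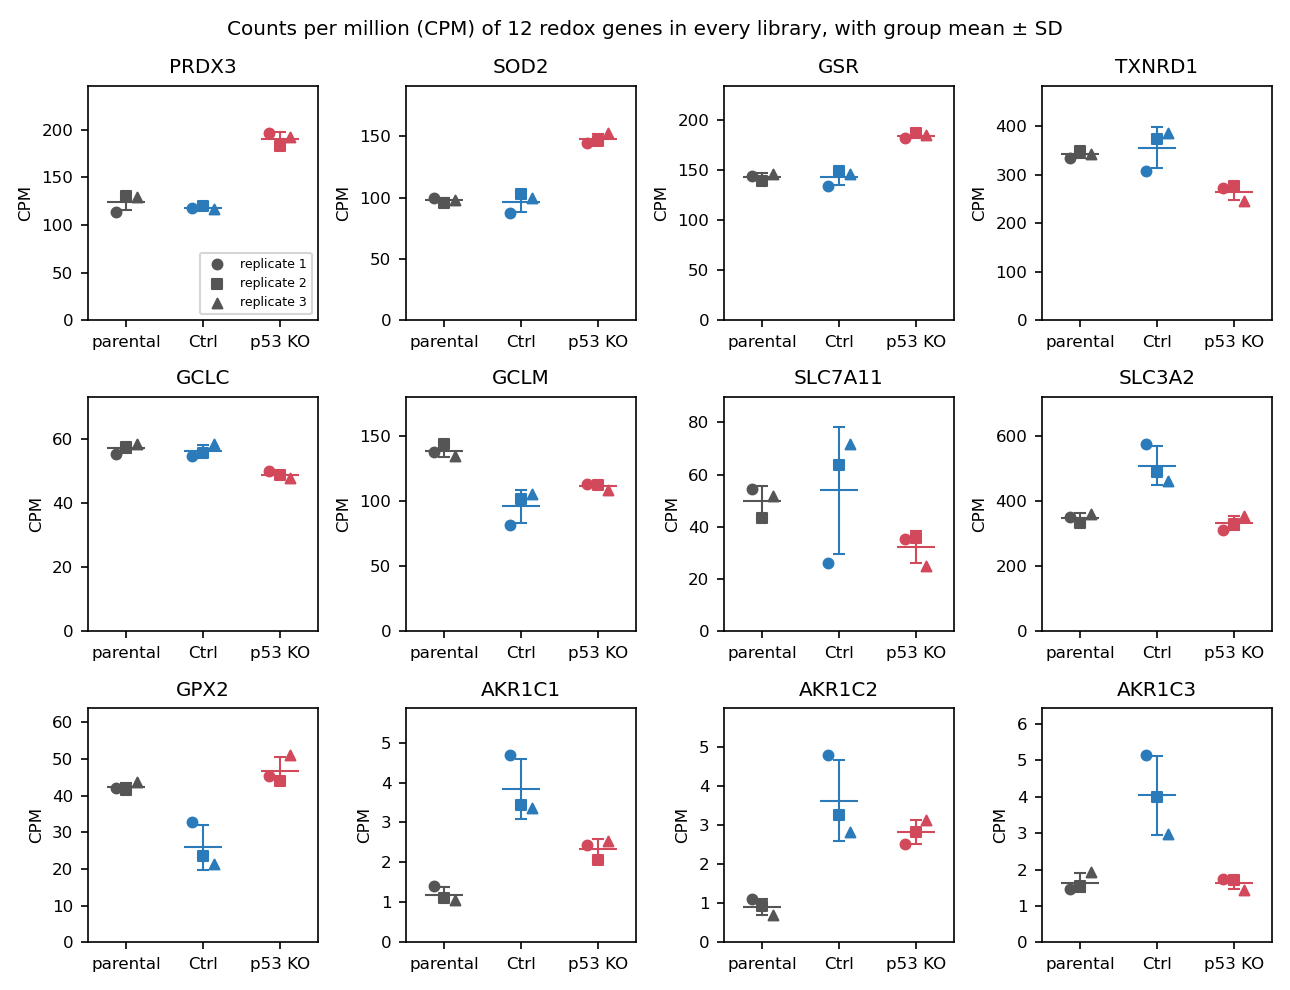
CPM on a linear axis from 0 for 12 redox genes, with each library as a point (circle, square and triangle for replicates 1, 2 and 3), the group mean as a line and ± SD as bars, n = 3. PRDX3, SOD2 and GSR stand higher and TXNRD1 and GCLC lower in p53 KO cells than in both controls, and SLC7A11 spreads from 26.2 to 71.8 CPM within Ctrl.

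Of the glutathione peroxidases and transferases, none was called in p53 KO against parental cells, and their calls set Ctrl apart. GPX2, an epithelial peroxidase and known NRF2 target, was at 42.1, 41.7 and 43.7 CPM in parental, 45.3, 43.9 and 51.2 CPM in p53 KO and 32.9, 23.5 and 21.4 CPM in Ctrl libraries. Ctrl was below both other groups without overlap. The log2FC was 0.86 ± 0.14 in p53 KO against Ctrl (1.81-fold, adjusted p = 0.000854, edgeR) and -0.72 ± 0.14 in Ctrl against parental cells (adjusted p = 0.0054, edgeR), and both calls were kept without any 1 library. GPX4, which reduces lipid hydroperoxides and guards against ferroptosis, was higher in Ctrl than in parental cells (log2FC 0.67, adjusted p = 0.0104, edgeR), a call that was lost without parental replicate 1. In p53 KO against Ctrl cells GPX4 had a log2FC of -0.42 (adjusted p = 0.0524, edgeR). GSTP1, a cytosolic transferase, was higher in Ctrl (log2FC 0.48, adjusted p = 0.0391, edgeR), but Ctrl replicate 1 held its highest value, 841 CPM, and the call was lost without that library (log2FC 0.31), any 1 parental library, p53 KO replicate 1 or Ctrl replicate 2. GPX1, for which 49.6% of 75-base windows recur in other annotated genes, and the endoplasmic reticulum peroxidase GPX8 were called nowhere.

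Within the thioredoxin system, the reductase was lower and the mitochondrial peroxiredoxin higher in p53 KO cells. TXNRD1 (chr12:104215779-104350307, plus strand), which reduces cytosolic thioredoxin with NADPH and whose promoter holds a pair of ARE cores, was at 274, 277 and 246 CPM in p53 KO, 334, 350 and 343 CPM in parental and 309, 374 and 387 CPM in Ctrl libraries. No p53 KO value reached a control value. The log2FC was -0.37 ± 0.09 against parental (0.775-fold, adjusted p = 0.0156, edgeR) and -0.43 ± 0.09 against Ctrl cells (0.745-fold, adjusted p = 0.00416, edgeR). The first call was lost without parental replicate 2, parental replicate 3 or p53 KO replicate 3, and the second was kept in 9 of 9 fits.

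PRDX3 (chr10:119167720-119178812, minus strand), the peroxiredoxin of the mitochondrial matrix, was at 197, 183 and 192 CPM in p53 KO, 114, 130 and 129 CPM in parental and 118, 120 and 117 CPM in Ctrl libraries. The p53 KO libraries were all well above the others. Its log2FC was 0.62 ± 0.07 against parental (1.53-fold, adjusted p = 0.000232, edgeR) and 0.69 ± 0.07 against Ctrl cells (1.61-fold, adjusted p = 4.4e-05, edgeR), called in 9 of 9 fits. The other peroxiredoxins were not called higher in p53 KO cells. PRDX1, PRDX4 and PRDX6 were called nowhere with all libraries, PRDX2 was higher in Ctrl against parental (log2FC 0.39) and PRDX5 was higher in Ctrl against parental (0.50) and lower in p53 KO against Ctrl cells (-0.47). Ctrl replicate 1 was the highest library for PRDX5, at 262 CPM against 171 and 178 CPM in the other Ctrl libraries. Without Ctrl replicate 1 the log2FC of PRDX5 was 0.28 and -0.25 and that of PRDX2 was 0.24. The PRDX5 calls were lost without any 1 parental library in the first comparison and without p53 KO replicate 1 or 2 in the second, and that of PRDX2 without any 1 parental library, p53 KO replicate 1 or 2 or Ctrl replicate 2. TXN, thioredoxin itself, was at 233 to 258 CPM in parental, 280 to 323 CPM in p53 KO and 266 to 330 CPM in Ctrl libraries. Its log2FC was 0.28 in p53 KO against parental cells (adjusted p = 0.0523, edgeR). It was 0.27 in Ctrl against parental and 0.015 in p53 KO against Ctrl cells. SRXN1, which repairs overoxidised peroxiredoxins, was called nowhere, and 90.5% of its windows also belong to an overlapping annotated gene, so its counts are uncertain.

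The largest changes were in aldo-keto reductases, enzymes that reduce carbonyls and steroids, and these genes were scarcely transcribed in A431 cells. Per kilobase of exon, AKR1B10, AKR1C1 and AKR1C2 were at 0.126, 0.137 and 0.149 CPM per kb in parental cells, where FTH1 was at 771. AKR1C1 (chr10:4963253-4983283, plus strand) was at 1.42, 1.12 and 1.06 CPM in parental, 2.45, 2.05 and 2.53 CPM in p53 KO and 4.69, 3.44 and 3.36 CPM in Ctrl libraries. The groups did not overlap. Its log2FC was 0.96 ± 0.21 in p53 KO against parental (adjusted p = 0.00822, edgeR), 1.65 ± 0.19 in Ctrl against parental (adjusted p = 0.000243, edgeR) and -0.70 ± 0.17 in p53 KO against Ctrl cells (adjusted p = 0.0115, edgeR), the last of which was lost without p53 KO replicate 2.

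AKR1C2 (chr10:4987775-5018031, minus strand) lies beside it and rose in both edited lines. It was at 1.11, 0.923 and 0.692 CPM in parental, 2.52, 2.81 and 3.13 CPM in p53 KO and 4.79, 3.27 and 2.82 CPM in Ctrl libraries. The edited lines overlapped each other and not parental cells. The log2FC was 1.60 ± 0.25 in p53 KO (3.04-fold, adjusted p = 0.00141, edgeR) and 1.95 ± 0.25 in Ctrl against parental cells (3.87-fold, adjusted p = 0.000386, edgeR), and -0.35 between p53 KO and Ctrl cells (adjusted p = 0.235). AKR1C3 (chr10:5035354-5107686, plus strand), the third of the cluster, was higher in Ctrl cells, and its p53 KO and parental values overlapped. It was at 1.45, 1.54 and 1.94 CPM in parental, 1.74, 1.71 and 1.44 CPM in p53 KO and 5.15, 4.0 and 2.97 CPM in Ctrl libraries, with a log2FC of 0.01 (adjusted p = 0.978), 1.29 in Ctrl against parental (adjusted p = 0.00216) and -1.28 in p53 KO against Ctrl cells (adjusted p = 0.000985, edgeR). These sequences resemble each other: 33.9% of the 75-base windows of AKR1C2 occur in AKR1C1 and 16.5% of those of AKR1C1 in AKR1C2, against 8.94% of those of AKR1C3 in AKR1C2, so the split of reads between the first pair is uncertain.

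AKR1B10 (chr7:134527567-134541412, plus strand), which reduces retinal and other aldehydes, rested on few reads, with 3, 6 and 7 counts in parental, 4, 6 and 2 counts in p53 KO and 10, 17 and 12 counts in Ctrl libraries. Ctrl was above the other groups, which overlapped. The log2FC was -1.71 ± 0.41 in p53 KO against Ctrl (adjusted p = 0.00906, edgeR) and 1.25 ± 0.39 in Ctrl against parental cells (adjusted p = 0.0425, edgeR), a call kept in 1 of 9 fits, that without Ctrl replicate 3. NQO1, the quinone reductase often used as a readout of NRF2 activity, was at 183, 193 and 201 CPM in parental, 166, 161 and 175 CPM in p53 KO and 249, 221 and 210 CPM in Ctrl libraries. The 3 groups did not overlap, with p53 KO lowest. The difference from Ctrl was called (log2FC -0.44 ± 0.08, adjusted p = 0.0015, edgeR) and that from parental was not (-0.20 ± 0.08, adjusted p = 0.101, edgeR). HMOX1, which degrades heme, and OSGIN1 were called nowhere.

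Few of the genes that supply NADPH, store iron or remove superoxide and peroxide were called. Of PGD, TALDO1 and TKT of the pentose phosphate pathway and ME1, malic enzyme, only TALDO1 was called, higher in Ctrl than in parental cells (log2FC 0.37, adjusted p = 0.0336, edgeR), and that call was kept in 4 of 9 fits, being lost without any 1 parental library or p53 KO replicate 1 or 2, with a log2FC of 0.23 without Ctrl replicate 1. FTH1 is the ferritin heavy chain and was the most abundant redox transcript per kilobase. It was at 1940, 1950 and 2100 CPM in p53 KO, 1540, 1600 and 1500 CPM in parental and 2100, 1510 and 1480 CPM in Ctrl libraries. Against parental cells its log2FC of 0.37 ± 0.12 had an adjusted p of 0.0503 (edgeR), just outside the threshold. Against Ctrl cells the log2FC was 0.24 and not called. Of its windows, 31.5% recur in annotated pseudogenes and other genes. FTL, SOD1 and CAT (catalase) were called nowhere. SOD2 (chr6:159669069-159762529, minus strand), the manganese superoxide dismutase of mitochondria, was at 145, 146 and 153 CPM in p53 KO, 100, 95.8 and 97.9 CPM in parental and 87.4, 103 and 100 CPM in Ctrl libraries. All p53 KO libraries were above all others. The log2FC was 0.59 ± 0.08 against parental (1.51-fold, adjusted p = 0.000387, edgeR) and 0.61 ± 0.08 against Ctrl cells (1.53-fold, adjusted p = 0.000138, edgeR), called in 9 of 9 fits. SOD2 and PRDX3 act on consecutive steps of superoxide and peroxide removal in the same compartment.

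**Figure D3:**
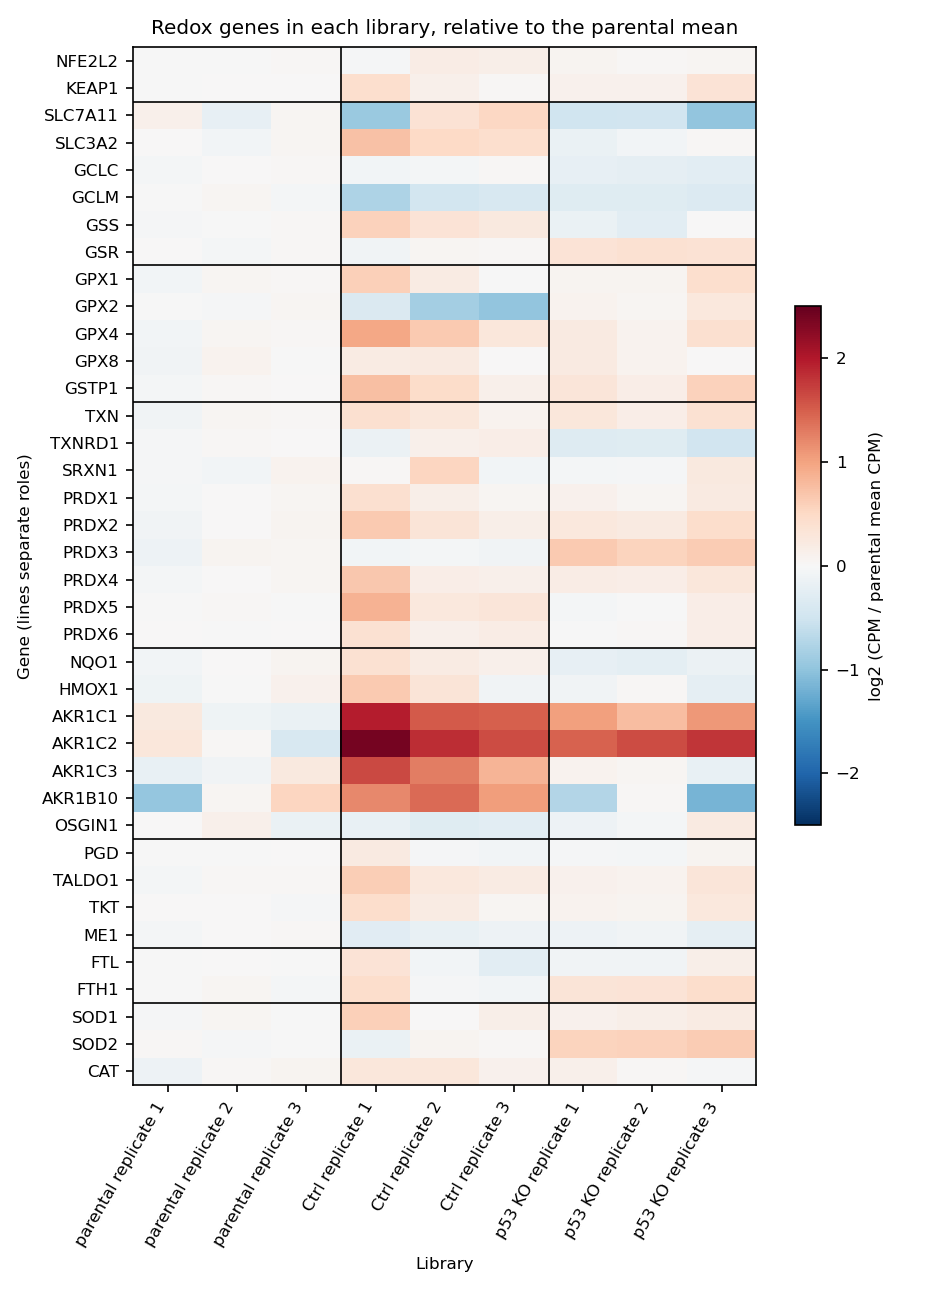
Colour gives log2 of CPM over the parental mean CPM for 38 redox genes (rows, lines separate roles) in 9 libraries (columns). PRDX3, SOD2 and GSR are redder in p53 KO than in Ctrl libraries, the AKR1C genes are darkest in Ctrl, and Ctrl replicate 1 is the reddest column, with 26 of 38 genes highest of their group there. The share of all genes highest there is not given.

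The 3 redox genes that rose against both controls lie among genes that were also higher in p53 KO cells. For each redox gene the median log2FC of all other genes tested within 5 Mb was taken. Around PRDX3 it was 0.43 against parental and 0.67 against Ctrl cells over 41 genes, beside 0.62 and 0.69 for PRDX3 itself. Around SOD2 it was 0.43 and 0.55 over 30 genes, beside 0.59 and 0.61 for SOD2. Around GSR it was 0.45 and 0.46 over 38 genes, beside 0.36 for GSR in both comparisons. Of these neighbours 37 of 41, 25 of 30 and 36 of 38 had a positive log2FC against parental cells. By contrast, TXNRD1 and GCLC lay among genes with medians of -0.09 each against parental and 0.06 and 0.14 against Ctrl cells. For 27 of 38 redox genes the neighbour median against parental cells was within 0.1 of 0, and it ranged from -0.36 around AKR1B10 to 0.45 around GSR. Around the AKR1C cluster it was -0.20 against parental and -0.30 against Ctrl cells over 37 genes. Whether the gene dose of these regions differs between the lines was not tested, since no DNA was measured.

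**Figure D4:**
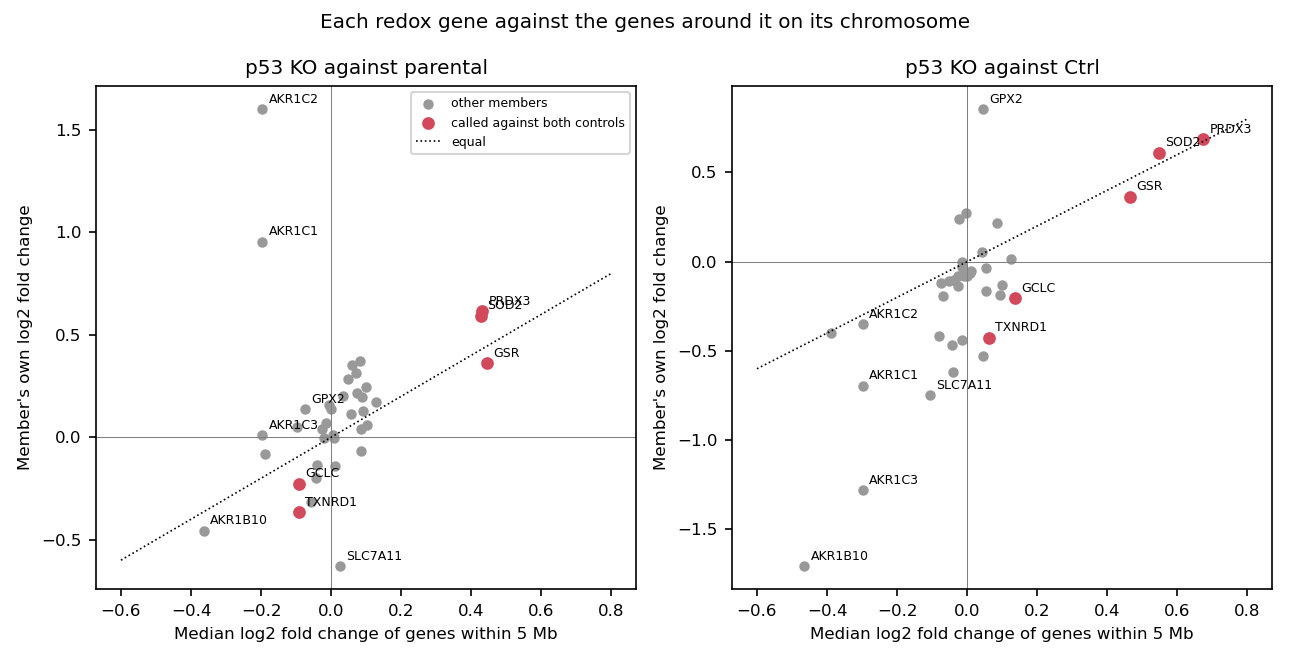
Each point is 1 of 38 redox genes, with the median log2 fold change of other genes within 5 Mb on the x axis and its own log2 fold change on the y axis, for p53 KO against parental (left) and against Ctrl (right); the dotted line marks equal values and red marks calls against both controls. GSR, PRDX3 and SOD2 lie near the line at neighbour medians of 0.43 to 0.67, and TXNRD1 and GCLC lie below it.

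Leaving out the libraries that stood apart changed how many redox genes were called. Without Ctrl replicate 1, p53 KO against parental gave 13 higher and 5 lower redox genes, where 17.2% and 16.3% of all genes tested were called. With p53 KO replicate 3 left out too, it gave 10 higher and 6 lower (15.7% and 15.1% of all genes), p53 KO against Ctrl 5 higher and 12 lower (19.2% and 18.9%) and Ctrl against parental 16 higher and 4 lower (14.2% and 14.3%). Without Ctrl replicate 3, Ctrl against parental gave 21 redox genes, where 29.6% of all genes were called. The median log2FC in p53 KO against Ctrl cells moved from -0.12 to -0.06, and to 0.002 without Ctrl replicate 1 alone. The median below 0 in p53 KO against Ctrl cells with all libraries was thus not kept without Ctrl replicate 1. That comparison still gave 5 higher and 10 lower redox genes without this library (17.7% and 17.3% of all genes). Ctrl against parental then gave 10 higher and 2 lower (10.4% and 10.3% of all genes), with a median log2FC of 0.15.

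A wider list of redox genes outside the 40 held 87 symbols found in the table, of which 72 were tested. In p53 KO against parental cells 11 were higher (15.3%, against 9.77% of all genes) and 7 lower (9.72%, against 8.36%). Against Ctrl cells 8 were higher (11.1%, against 15%) and 17 lower (23.6%, against 14.2%). In Ctrl against parental cells 22 were higher (30.6%, against 10.6%) and 5 lower (6.94%, against 9.69%). Those called against both controls were 5 higher and 5 lower (6.94% each, against 6.46% and 5.25% of all genes), which is near the background. The higher ones were GLRX (glutaredoxin), GLRX3, GSTO2, ABCC2 (an exporter of glutathione conjugates) and AIFM2, which limits ferroptosis, at log2FC 0.70, 0.55, 0.81, 0.94 and 0.42 against parental cells. GLRX3, GSTO2, ABCC2 and AIFM2 share the long arm of chromosome 10 with PRDX3, and their neighbour medians against parental cells were 0.52, 0.55, 0.54 and 0.37, where that of GLRX on chromosome 5 was 0.04. ABCC2 rested on few reads, with 17, 10 and 11 counts in parental, 29, 29 and 18 in p53 KO and 3, 6 and 11 in Ctrl libraries. Against Ctrl cells its log2FC was 1.87, where its neighbour median was 0.54. The lower ones were MAFF, a small partner of NRF2 on DNA, GSTM4, AKR1B1, GGT7 and MSRB2 (methionine sulphoxide reductase), at -0.31, -0.41, -0.56, -0.52 and -0.70. Their neighbour medians were -0.14, -0.02, -0.38, -0.04 and -0.43 against parental cells. Against Ctrl cells the medians were -0.36, 0.09, -0.47, 0.04 and -0.47, beside -0.56, -0.66, -0.91, -1.07 and -1.24 for the genes themselves. MAFF, AKR1B1 and MSRB2 thus also lay among genes that were mostly lower in p53 KO cells.

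Past a log2FC of 1 in that wider list were also genes that differed between parental cells and at least 1 edited line. TXNIP, which binds and inhibits thioredoxin, was higher by 1.20 in p53 KO and in Ctrl against parental cells. ALDH3A1, an aldehyde dehydrogenase of squamous epithelia, was higher by 2.22 in Ctrl against parental and had a log2FC of -1.89 in p53 KO against Ctrl cells, an order of groups like that of AKR1C3. CHAC1, which degrades glutathione, was higher in Ctrl (1.49) and in p53 KO (0.63) against parental cells. GGT1 had a log2FC of -1.17 in Ctrl against parental cells, on 31, 20 and 22 counts in parental and 16, 8 and 8 in Ctrl libraries. These groups overlapped, with 0.816 CPM in Ctrl replicate 1 and 0.769 CPM in parental replicate 2. Its p53 KO libraries were at 0.738, 0.723 and 0.695 CPM. MSRB3 had 11, 13 and 22 counts in parental and none in any Ctrl or p53 KO library, at least 5.20-fold lower in Ctrl and 5.33-fold lower in p53 KO against a floor of 3 counts per library.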

How the data were processed

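Poly(A) strand-specific libraries were made by the authors from 200 ng of RNA with 14 cycles of amplification and sequenced as 75 bp paired ends. Reads were aligned with STAR 2.5.1b to GRCh38 and the authors deposited raw counts per gene, made with featureCounts on Ensembl 85, as 1 table whose 9 columns were matched to samples by title. Per the submitters' processing notes FastQC was also run; strand and multimapping settings of the counting are not given in the sources used here. Counts of 9 libraries were filtered with filterByExpr (minimum 10) and TMM-normalised, and fitted with edgeR 4.0.16 (quasi-likelihood test, 1 mean per group, R 4.3.3) without a covariate. P-values were adjusted by Benjamini-Hochberg over 14513 genes. DESeq2 1.42.0, other scalings, filters, the replicate number as a block, fits of 2 groups and fits without each library were alternatives. The fit was tested on simulated data. Gene positions, exon lengths and 75-base windows were from GENCODE 44 (GRCh38) and promoters from RefSeq; counts per kilobase used summed exon length. No 2 libraries of a group agreed within sampling noise (chi-square per degree of freedom 5.35 to 51.8). The replicate numbers come from the titles and did not pair the samples.

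Values in every library are given for NFE2L2 and KEAP1, for genes past a log2 fold change of 1.5 and for genes called in p53 KO against both controls; other genes shown this way, such as SLC7A11, AKR1C3, GCLM, SLC3A2, GPX2 and NQO1, were chosen after their values were seen. In the wider list, genes past 1 or called against both controls are named. The members and lists were chosen with earlier results of these data known. Leaving out Ctrl replicate 1 and p53 KO replicate 3 together was chosen after seeing the data. The check of the edit on the targeted transcript is not reported here.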

Additional observations from a re-analysis of the deposited data

Results flagged for a closer look

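In 3 aldo-keto reductase genes the changes of the edited lines from parental cells differed from each other, tested as p53 KO against Ctrl cells (edgeR quasi-likelihood test). Of the 38 redox genes tested, 13 were called in that comparison (34.2%, where 29.2% of all genes were called). Such a difference was thus not particular to these 3 genes. AKR1C1 rose in both lines and less in p53 KO cells, a difference of -0.70 on the log2 scale (adjusted p = 0.0115). AKR1C3 rose in Ctrl cells and had overlapping values in p53 KO and parental cells, a difference of -1.28 (adjusted p = 0.000985). AKR1B10, with 2 to 17 counts per library, differed by -1.71 (adjusted p = 0.00906). Which of these follow p53 and which the growth of a line from its colony cannot be told apart in this design.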

How the results depend on the processing

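Calls of GSR, PRDX3 and SOD2 against both controls were kept under every alternative run. Fits on the 2 groups compared gave 18 redox genes in p53 KO against parental and 8 in Ctrl against parental, where 34.1% and 13.2% of all genes were called, against 18.1% and 20.3% with all libraries. Without Ctrl replicate 1 and p53 KO replicate 3 the counts were 16 in p53 KO against parental and 20 in Ctrl against parental. In these comparisons 30.8% and 28.5% of all genes were called. The same setting gave 9 redox genes against both controls and 1 past 1.5 in Ctrl against parental. In the wider list it gave 28 in p53 KO against parental and 17 against both. For the alternative fits, the shares of all genes called against both controls or past 1.5 are not given here. At least 10 counts in every library left 0 redox genes past 1.5 in p53 KO against Ctrl, since AKR1B10 was not tested there, and a limit of 1 in place of 1.5 gave 2 in that comparison and 4 in Ctrl against parental. AKR1B10 in Ctrl against parental lost its call under DESeq2, without the filter, in fits of 2 groups, under the block and without the libraries that stood apart, and GCLC lost both calls without the filter and under the block; the cause was not tested.

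The replicate number was also fitted as a block, although the same numbers did not deviate together (r of -0.72 to 0.22 between same-numbered libraries). This gave 8 redox genes in Ctrl against parental, where 11.7% of all genes were called, against 20.3% in the main fit. In the wider list it gave 17 in that comparison and 6 against both controls. Under the block KEAP1 in p53 KO against Ctrl was 0.00024 and AKR1C3 in p53 KO against parental -0.0046.

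Leaving out 1 library at a time gave 5 to 18 redox genes in p53 KO against parental (5 without parental replicate 2, parental replicate 3 or p53 KO replicate 3, 18 without Ctrl replicate 1), 6 to 21 in Ctrl against parental (6 without parental replicate 1, 21 without Ctrl replicate 3) and 3 to 8 against both controls. The share of all genes called in the same fits ran from 10.6% to 33.5% and from 9.34% to 29.6% in the first 2 comparisons. Past 1.5 there were 0 to 1 in p53 KO against parental, 0 without parental replicate 3, and 1 to 2 in Ctrl against parental. The wider list gave 10 to 28, 14 to 36 and, against both controls, 5 to 16.

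Some values near 0 that were not called changed sign. KEAP1 in p53 KO against Ctrl was 0.0076 without the filter, 0.037 without the libraries that stood apart and -0.087 to 0.12 without 1 library. GSR in Ctrl against parental was 0.0051 with library totals, 0.041 without the libraries that stood apart and -0.031 to 0.043 without 1 library. AKR1C3 in p53 KO against parental was -0.0055 with library totals, -0.00012 under DESeq2 and -0.072 to 0.14 without 1 library. In Ctrl against parental, SOD2 was 0.048 without the libraries that stood apart, and without 1 library SOD2 ranged from -0.060 to 0.0503, TXNRD1 from -0.00097 to 0.15 and SLC7A11 from -0.14 to 0.44.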

Other observations

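Within groups, the redox genes were most even in parental cells, where the median ratio of the highest to the lowest CPM was 1.07, followed by 1.16 in p53 KO and 1.30 in Ctrl cells. The widest spread among Ctrl libraries was that of SLC7A11, at 2.74.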
